A study of Mus musculus with 8 samples.

Results

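Transcripts of 10 circadian clock genes were read in the hearts of mouse embryos at E18.5, late in gestation: *Clock*, *Arntl*, *Per1*, *Per2*, *Per3*, *Cry1*, *Cry2*, *Nr1d1*, *Nr1d2* and *Dbp*. They are 10 of the 19096 genes that could be named on the array, and they were taken by name, with every probe whose accession belongs to one of them, 17 of 41174 probes. The study compared whole-body germ-line SIRT1 knockout hearts (SIRT1 KO) with wild-type hearts (WT). It deposited 4 hearts of each genotype, each on a one-color Agilent array. All embryos were of the C57BL/6 strain (C57BL/6J in the study's methods), came from matings of heterozygous parents kept on chow diet, received no treatment and could be of either sex. The deletion is carried by every cell of the embryo, so the model is not specific to the heart. The hour of the day at which hearts were collected is not given in the sources used here.

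The circadian clock is a transcriptional feedback loop that runs in most mammalian cells. CLOCK and ARNTL (also called BMAL1) bind E-box elements as a pair and switch on the *Per* and *Cry* genes, whose proteins return to the nucleus and silence that pair. The nuclear receptors NR1D1 and NR1D2 (REV-ERBα and REV-ERBβ) repress *Arntl* in a further loop, and DBP is an output factor that binds D-box elements. In the adult heart, *Dbp* and *Nr1d1* are among the transcripts that swing most over the day. SIRT1, an NAD+-dependent deacetylase, is known to associate with CLOCK and ARNTL and to deacetylate ARNTL and PER2.

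The promoters below are shown because they carry the elements through which the loop is wired, and because *Tef*, a relative of *Dbp*, was the clock factor that passed the test. They are the 250 bases before a transcript start in RefSeq (GRCm38.p6). The set of promoters used here covered 9 of the 10 genes and lacked *Per2*. Both strands were searched for the E-box CACGTG, the D-box TTATGTAA, the cyclic AMP response element TGACGTCA and the core TAGGTCA that NR1D receptors bind. Capitals mark the matches, and positions count back from the transcript start, with -1 the base just before it.
Per1 (chr11:69098699-69098948, plus strand): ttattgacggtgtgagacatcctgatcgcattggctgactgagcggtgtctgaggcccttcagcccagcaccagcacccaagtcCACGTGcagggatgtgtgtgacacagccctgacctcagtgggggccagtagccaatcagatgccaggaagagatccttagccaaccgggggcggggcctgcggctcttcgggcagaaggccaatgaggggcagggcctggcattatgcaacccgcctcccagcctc
Cry1 (chr10:85185055-85185304, minus strand): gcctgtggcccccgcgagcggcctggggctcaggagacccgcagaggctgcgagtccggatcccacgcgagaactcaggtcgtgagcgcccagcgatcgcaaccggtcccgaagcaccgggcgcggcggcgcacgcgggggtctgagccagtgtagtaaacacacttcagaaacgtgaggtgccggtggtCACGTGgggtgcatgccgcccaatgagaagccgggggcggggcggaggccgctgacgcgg
Per3 (chr4:151044666-151044915, minus strand): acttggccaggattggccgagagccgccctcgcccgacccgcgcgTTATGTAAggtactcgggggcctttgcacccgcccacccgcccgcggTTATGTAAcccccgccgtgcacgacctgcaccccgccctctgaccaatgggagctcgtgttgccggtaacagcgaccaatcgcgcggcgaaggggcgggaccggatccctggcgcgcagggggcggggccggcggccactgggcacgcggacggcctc
Tef (chr15:81802423-81802672, plus strand): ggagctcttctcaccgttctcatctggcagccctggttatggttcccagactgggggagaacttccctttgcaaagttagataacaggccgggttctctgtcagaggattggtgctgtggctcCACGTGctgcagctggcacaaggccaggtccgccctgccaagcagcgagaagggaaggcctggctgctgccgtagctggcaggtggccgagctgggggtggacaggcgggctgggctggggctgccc
Tef (chr15:81811164-81811413, plus strand): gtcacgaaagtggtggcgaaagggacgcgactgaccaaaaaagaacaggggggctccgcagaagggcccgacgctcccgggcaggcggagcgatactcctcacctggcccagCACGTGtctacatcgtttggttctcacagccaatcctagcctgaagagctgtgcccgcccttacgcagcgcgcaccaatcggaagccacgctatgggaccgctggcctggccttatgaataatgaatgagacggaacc
The E-box began at base -166 before 1 of the 2 *Per1* starts (the window of the other held none of the motifs and is not shown), at -60 in *Cry1* and at -127 and -138 before the starts of *Tef*. *Per3* held the D-box at -205 and again at -158. Of all 32851 such windows, 6.02% held the E-box, 0.819% the D-box, 1.55% the cyclic AMP element and 2.23% the receptor core. In all, 3 of the 9 genes held at least 1 of the 4 motifs in this window, and *Clock*, *Arntl*, *Cry2*, *Nr1d1*, *Nr1d2* and *Dbp* held none of these letters there. Of further genes searched, *Ciart* held the E-box at -116, -58 and -44, *Hlf* the cyclic AMP element and *Nfil3* the receptor core, and none of these passed the test. *Ppp5c* and *Klf9*, which passed, were not among the genes found with a motif. A link between motif and call was not tested.

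A value below is the log2 signal of a probe after the 75th percentile of its array was subtracted, so 0 is the level of a fairly bright probe, and a difference of 1 is a doubling. Levels are compared between hearts for the same probe, never between probes. That percentile was 939 to 1033 intensity units in WT and 777 to 906 in SIRT1 KO, with no saturated spots. Each genotype filled its own slide, and the slides were scanned on separate days, so the slide and its scan cannot be told apart from the genotype. The targeted gene was checked first. On the brighter *Sirt1* probe (A_52_P358612) the log2 signal was -0.14, 0.32, 0.00 and 0.00 in the WT hearts and 0.64, 0.50, 0.43 and 0.75 in the hearts labelled SIRT1 KO, higher by 0.54 (standard error 0.11, adjusted p = 0.0323 from limma). With each heart left out in turn it passed in 2 of 8 fits. On the other probe (A_51_P141152) the difference was -0.11 (standard error 0.11, adjusted p = 0.589 from limma). As *Sirt1* did not fall past the threshold on either probe, each direction below is that of the hearts labelled SIRT1 KO against those labelled WT. Where these probes lie in the deleted gene was not analysed here. All 12 cardiomyocyte markers were well above background in every heart. No lung or thymus marker reached the level needed for testing.

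None of the clock genes passed the test between the genotypes. Of the 17 probes, 15 were bright enough to be tested, and 0 of them had an adjusted p under 0.05 with limma, where 4.88% of all 25616 tested probes did. At an unadjusted p under 0.05 there were 5 of the 15 probes, against 21.5% of all probes, and the methods' analysis of variance likewise gave 5 before and 0 after Benjamini-Hochberg adjustment, with 2.13% of all probes past it. The smallest adjusted p among the 15 was 0.117 with limma, on a dim *Per2* probe (A_52_P536869) that is also among the 5 in both tests. It was well above background in 1 WT heart and 4 SIRT1 KO hearts, so it entered the test through the SIRT1 KO hearts. Among the other probes the smallest was 0.131 with limma (*Cry2*). With the brightest probe of each gene, 6 genes were higher and 4 lower in SIRT1 KO hearts, and the median log2 difference was 0.08, against -0.01 over all 13594 genes tested. The median of the 10 genes was -0.06 with median scaling, -0.14 with no scaling and 0.20 without WT replicate 1. The medians of all probes there were -0.12, -0.21 and 0.01. The 95% confidence interval lay within 0.5 log2 units of 0 on both sides for 7 of the 10 genes. In whole hearts, fewer cells of a type and less RNA per cell cannot be told apart.

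**Figure D1:**
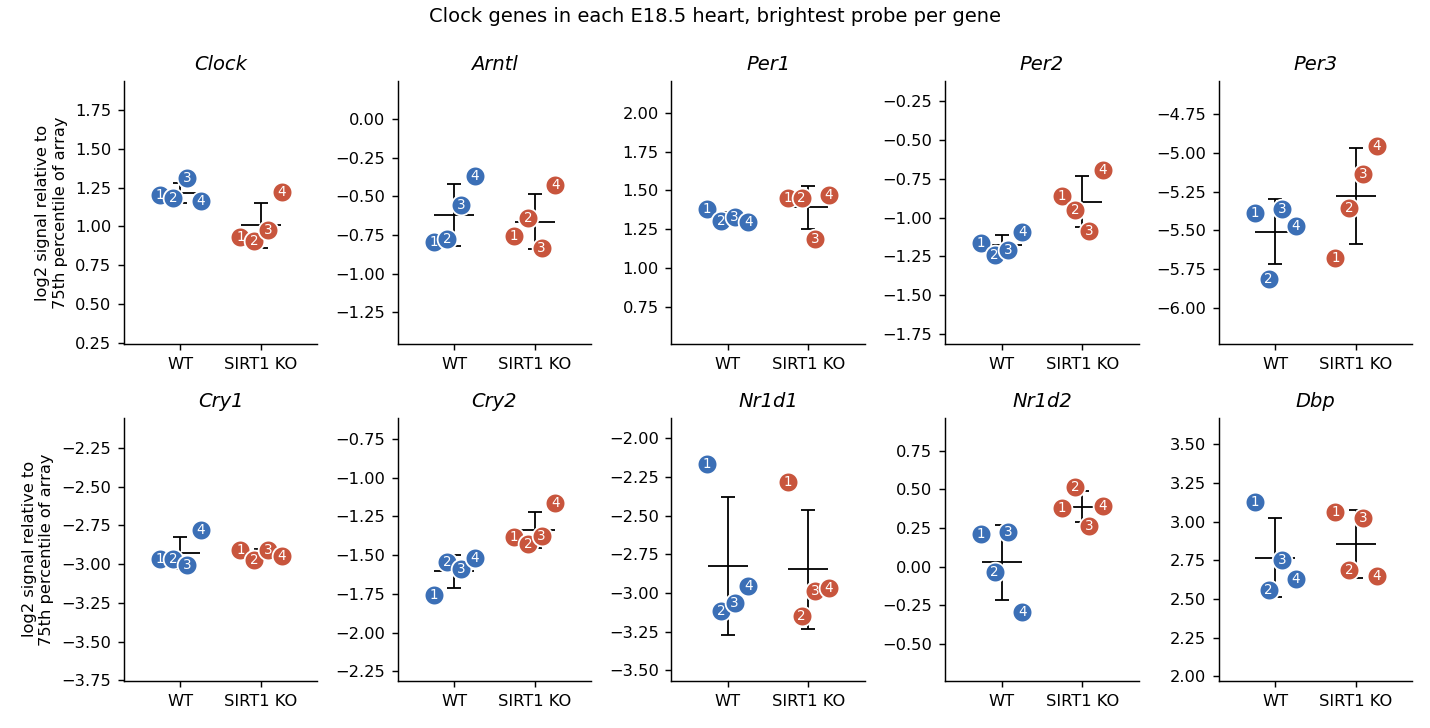
Log2 signal relative to the 75th percentile of the array for the brightest probe of each clock gene, 1 numbered point per heart (the replicate number), with the mean and SD of each genotype in black (n = 4); every panel spans the same range on its axis. *Per2*, *Cry2* and *Nr1d2* are the genes whose genotypes do not overlap, and replicate 1 stands above the others for *Nr1d1* in both genotypes.

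The probes of the activators pointed in both directions, and none passed the test. *Clock*, the histone acetyltransferase and DNA-binding partner of ARNTL, had 1.20, 1.18, 1.31 and 1.17 in WT replicates 1 to 4 and 0.93, 0.91, 0.98 and 1.22 in SIRT1 KO replicates 1 to 4 on its brightest probe (A_52_P334670). SIRT1 KO replicates 1 to 3 lay below every WT heart, while SIRT1 KO replicate 4 lay inside the WT range. The difference was -0.21 (standard error 0.09, 95% confidence interval -0.41 to -0.01), with an adjusted p of 0.216 from limma. The remaining *Clock* probes gave -0.05 (A_52_P334677, adjusted p = 0.738 from limma) and 0.12 (A_52_P161365, adjusted p = 0.748 from limma), so the 3 probes of this gene did not share a sign.

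*Arntl*, the partner without which the loop stops, had -0.79, -0.77, -0.56 and -0.37 in the WT hearts and -0.76, -0.64, -0.84 and -0.42 in the SIRT1 KO hearts. The genotypes covered almost the same range, and replicate 4 was the highest heart of each. The difference was -0.04 (standard error 0.12, 95% confidence interval -0.32 to 0.24, limma adjusted p = 0.877).

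Among the repressors, *Per2* and *Cry2* were a little higher in every SIRT1 KO heart without passing the test. *Per2*, whose protein carries the repressor complex into the nucleus, had -1.16, -1.24, -1.21 and -1.10 in the WT hearts and -0.86, -0.95, -1.09 and -0.69 in the SIRT1 KO hearts (A_51_P282760). The genotypes did not overlap, although the closest pair, WT replicate 4 and SIRT1 KO replicate 3, was only 0.01 apart. The difference was 0.28, or 1.21-fold (standard error 0.09, 95% confidence interval 0.07 to 0.49, limma adjusted p = 0.133; exact two-sided permutation p = 0.0286, the smallest that 4 against 4 hearts can give). Across all probes, 13.7% had genotypes that did not overlap, and among the 15 tested clock probes there were 3, so the genotype separation of *Per2* has this background.

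A dimmer *Per2* probe (A_52_P536869) read -6.22, -5.90, -6.00 and -4.91 in the WT hearts and -5.16, -4.80, -4.84 and -5.04 in the SIRT1 KO hearts. It was well above background in 1 WT heart and in all 4 SIRT1 KO hearts, so it entered the test through the SIRT1 KO hearts, and its WT values are mostly those of background. The WT heart with signal, replicate 4, lay among the SIRT1 KO values. The fitted difference was 0.80 (standard error 0.25, adjusted p = 0.117 from limma), which has no exact meaning against such a group. Without WT replicate 4 no WT heart was well above background, and the call that this fit then gave, where 3.29% of all probes were called, sets the SIRT1 KO hearts against background.

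*Cry2*, a cryptochrome that binds and inhibits CLOCK and ARNTL, had -1.76, -1.54, -1.59 and -1.52 in the WT hearts and -1.38, -1.43, -1.38 and -1.17 in the SIRT1 KO hearts on its brighter probe (A_52_P248378). Every SIRT1 KO heart lay above every WT heart. The difference was 0.26, or 1.20-fold (standard error 0.09, 95% confidence interval 0.07 to 0.46, limma adjusted p = 0.131; exact two-sided permutation p = 0.0286). Its second probe (A_51_P135542) had a lower mean in the SIRT1 KO hearts. That probe read -5.88, -3.98, -4.56 and -3.56 in the WT hearts and -5.84, -5.33, -5.73 and -5.42 in the SIRT1 KO hearts, was well above background in 3 WT hearts and in 0 of the SIRT1 KO hearts, and was too dim for the test. WT replicate 1, the WT heart at background, lay below every SIRT1 KO heart, so no fold is given, and the fit without the filter on dim probes gave an adjusted p of 0.29 with limma.

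The other repressors were closer together. *Per1*, the PER gene that also answers to cyclic AMP and glucocorticoid signals, had 1.38, 1.31, 1.33 and 1.30 in the WT hearts and 1.45, 1.45, 1.18 and 1.47 in the SIRT1 KO hearts (A_52_P79889). SIRT1 KO replicate 3 was below every WT heart and the remaining 3 SIRT1 KO hearts above them, which left a difference of 0.06 (standard error 0.08, 95% confidence interval -0.12 to 0.25, limma adjusted p = 0.692).

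*Cry1*, the second cryptochrome, varied least among the clock genes: -2.97, -2.97, -3.00 and -2.78 in the WT hearts and -2.91, -2.97, -2.91 and -2.95 in the SIRT1 KO hearts (A_51_P302204). Its spread within genotypes was larger than that of only 7.06% of tested probes. The difference was -0.01, with a 95% confidence interval from -0.17 to 0.16, the narrowest of these genes (adjusted p = 0.973 from limma), and its dimmer probe (A_52_P420500) gave -0.07 (adjusted p = 0.882 from limma).

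*Per3*, a PER gene that the loop can do without, was near the floor of detection, well above background in 3 hearts of each genotype. Its values were -5.39, -5.81, -5.36 and -5.47 in the WT hearts and -5.68, -5.35, -5.13 and -4.96 in the SIRT1 KO hearts (A_51_P258493). The ranges overlapped, and the difference was 0.23 (standard error 0.16, 95% confidence interval -0.14 to 0.60, limma adjusted p = 0.452).

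**Figure D2:**
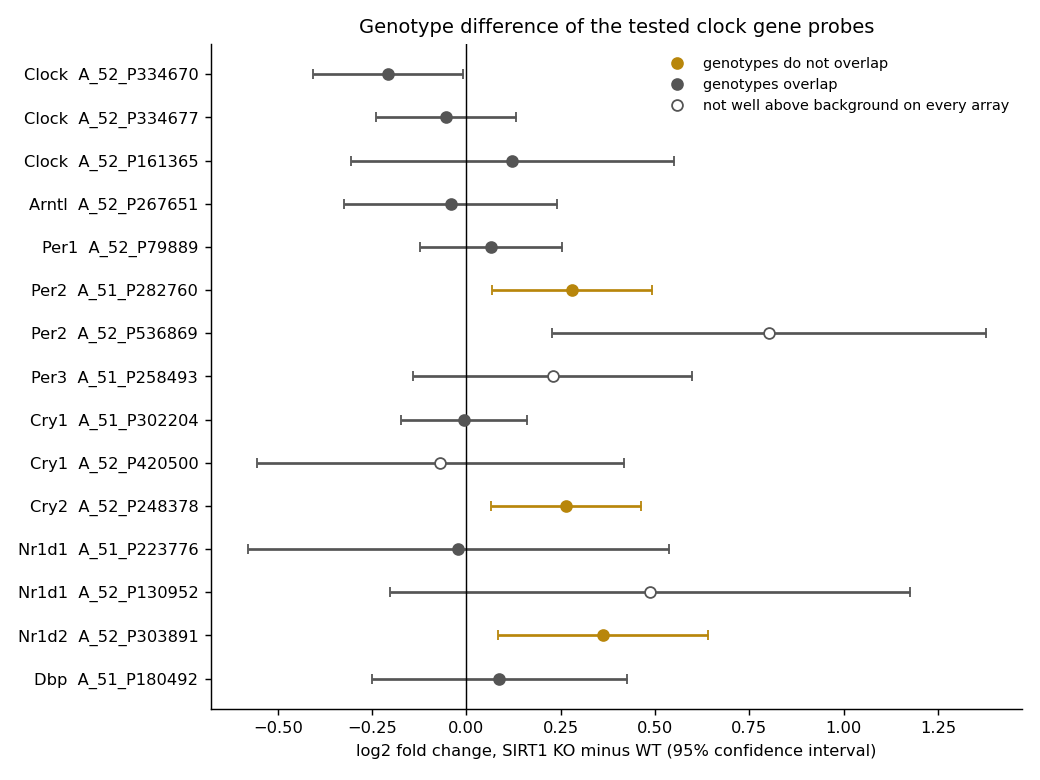
Log2 fold change of SIRT1 KO over WT hearts (n = 4 each) for the 15 tested clock gene probes, with the 95% confidence interval of the limma fit. Gold marks the 3 probes whose genotypes do not overlap, and open circles mark probes not well above background on all 8 arrays, whose differences include background values; the intervals run from 0.08 to 0.64 for *Nr1d2* and from -0.17 to 0.16 for the brighter *Cry1* probe.

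Neither NR1D receptor passed the test on the scale used here, and they were not tested against each other. *Nr1d2* had 0.21, -0.03, 0.22 and -0.29 in the WT hearts and 0.38, 0.51, 0.26 and 0.39 in the SIRT1 KO hearts (A_52_P303891). All SIRT1 KO hearts were above all WT hearts, with 0.04 between the closest pair, WT replicate 3 and SIRT1 KO replicate 3. The difference was 0.36, or 1.28-fold, the largest among the brightest probes (standard error 0.12, 95% confidence interval 0.08 to 0.64, limma adjusted p = 0.137; exact two-sided permutation p = 0.0286). It passed the test with another background correction, normexp, at 0.35 (adjusted p = 0.0494 from limma), a setting that called 9.9% of all probes.

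*Nr1d1*, the receptor with the stronger rhythm in adult tissues, had -2.17, -3.12, -3.06 and -2.95 in the WT hearts and -2.29, -3.15, -2.99 and -2.97 in the SIRT1 KO hearts (A_51_P223776). On this probe replicate 1 was the highest heart of both genotypes, and the other 3 hearts of each lay close together. The difference between genotypes was -0.02, with a 95% confidence interval from -0.58 to 0.54 (standard error 0.25, adjusted p = 0.969 from limma). The dimmer probe A_52_P130952, well above background in 1 WT heart and in all 4 SIRT1 KO hearts, entered the test through the SIRT1 KO hearts. It read -4.81, -6.39, -5.85 and -5.52 in the WT hearts and -4.96, -5.43, -4.82 and -5.42 in the SIRT1 KO hearts. Replicate 1 was its highest WT heart, but replicate 3 its highest SIRT1 KO heart. The fitted difference of this probe, 0.49 (standard error 0.30, adjusted p = 0.39 from limma), is against WT values mostly at background. The probe A_52_P130961 was well above background in 0 WT hearts and 1 SIRT1 KO heart, and was too dim for the test. The fit without the filter on dim probes gave it an adjusted p of 0.0572 with limma. Its values are mostly those of background, so no fold is given.

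*Dbp*, the PAR bZIP factor driven by CLOCK and ARNTL, had 3.13, 2.56, 2.76 and 2.63 in the WT hearts and 3.06, 2.69, 3.03 and 2.65 in the SIRT1 KO hearts (A_51_P180492). Again replicate 1 was the highest heart of each genotype, with SIRT1 KO replicate 3 close behind. The difference was 0.09 (standard error 0.15, 95% confidence interval -0.25 to 0.43, limma adjusted p = 0.773).

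The spread between hearts of 1 genotype was thus uneven across the loop. The pooled SD of *Nr1d1* within genotypes was 0.41 and exceeded that of 94.0% of tested probes. The dim *Per3* exceeded 82.5%, *Dbp* 78.2%, *Arntl* 66.6% and *Nr1d2* 65.4%. *Per1*, *Cry2*, *Clock* and *Per2* lay between 19.8% and 35.8%, and *Cry1* at 7.06%. These are the brightest probes. A dimmer probe of *Per2*, of *Cry1* and of *Clock* exceeded 94.4%, 91.6% and 88.0%, and another of *Clock* 17.9%. The median pooled SD over all probes was 0.15. On its brightest probe *Nr1d1* in replicate 1 stood 0.79 log2 units above the next WT heart and 0.68 above the next SIRT1 KO heart, 1.72-fold and 1.60-fold. On the dimmer probe A_52_P130952 SIRT1 KO replicate 1 lay below SIRT1 KO replicate 3. Replicate 1 was the highest heart of both genotypes in 9.57% of the 25535 probes with 8 values, and with a gap at least as large as that of *Nr1d1* in both genotypes in 5 probes (0.0196%). The named genes among these were *Nr1d1*, *Pde11a* and *S1pr3*, singled out after their values were seen.

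In the wider clock list, replicate 1 was highest in both genotypes for 3 of 22 tested genes: *Bhlhe40* and *Ciart*, repressors of CLOCK and ARNTL, and *Ppp5c*. It was so for 0 of 3 activators and 0 of 3 PAR bZIP and *Nfil3* genes, and for 2 of 13 clock output genes. *Bhlhe40* read 2.12, 0.92, 1.01 and 1.74 in the WT hearts and 1.97, 0.79, 1.32 and 1.82 in the SIRT1 KO hearts. *Ciart* read -3.76, -5.07, -4.23 and -4.22 in the WT hearts and -3.35, -4.04, -4.46 and -4.14 in the SIRT1 KO hearts. Among 10 genes that answer to cyclic AMP or serum the same order held for 4 (*Fos*, *Junb*, *Nr4a1* and *Sik1*), and among 10 glucocorticoid-responsive genes for 3 (*Sgk1*, *Mt1* and *Mt2*). These counts are a description of 2 hearts, chosen after the values were seen. The replicate number is also the position of the array on its slide, and the part of either in this order was not tested.

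**Figure D3:**
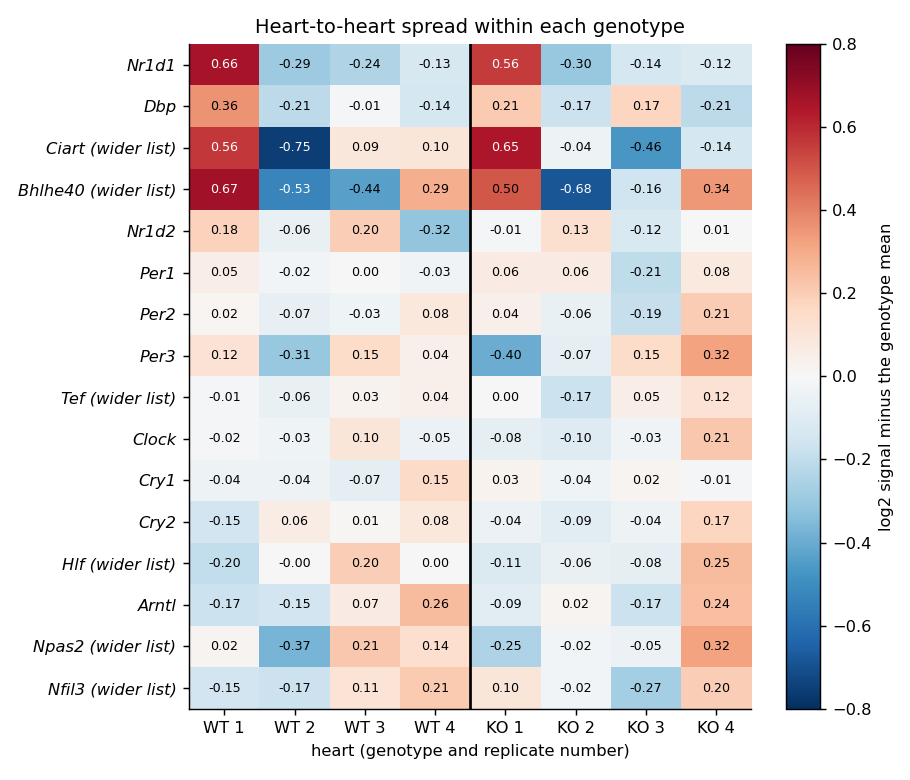
Log2 signal of each heart minus the mean of its genotype for the 10 clock genes and 6 genes of the wider list (brightest probe); columns are the WT hearts and the SIRT1 KO hearts by replicate number, red is above and blue below the genotype mean. Replicate 1 is the highest of both genotypes for *Nr1d1*, *Dbp*, *Ciart* and *Bhlhe40*.

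Genes whose pattern over the hearts was most like that of *Dbp* and *Arntl* were found by Pearson's r over the 8 arrays after the genotype mean was taken off, among 13424 genes outside the lists. For *Dbp* they were *Bnip3* (r = 0.977), *Jph2* (r = 0.975) and *Hscb* (r = 0.974). For *Arntl* they were *Dip2c* (r = 0.989), *Mtus1* (r = 0.983) and *Tnk2* (r = 0.980). Of the clock genes, *Nr1d1* was most like *Dbp* (r = 0.826), but only at rank 430 among all genes. With *Dbp*, r was -0.624 for *Arntl*, and still lower for *Cry2* (-0.728) and *Hlf* (-0.653). All values come from the same 8 arrays, and r over so few is a description only.

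Of 25 further clock genes, 22 were tested, and 2 rose in SIRT1 KO hearts while 0 fell (limma, adjusted p under 0.05). By their brightest probe 4.58% of all genes passed, 3.69% higher and 0.897% lower. The median difference of the 22 was 0.02, with 12 higher and 10 lower. *Tef*, a PAR bZIP activator of the *Dbp* family, had 0.87, 0.82, 0.90 and 0.92 in the WT hearts and 1.25, 1.08, 1.30 and 1.37 in the SIRT1 KO hearts (A_52_P485573). Every SIRT1 KO heart was above every WT heart, and the rise was 0.37 (standard error 0.08, 95% confidence interval 0.19 to 0.55, limma adjusted p = 0.0331). A dimmer *Tef* probe (A_51_P450561) gave -0.07 (adjusted p = 0.852 from limma). Of the 8 fits that left out 1 heart, *Tef* passed in 2, those without SIRT1 KO replicate 2 or 3, at adjusted p between 0.0275 and 0.0899 in the 8.

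*Ppp5c*, the phosphatase that acts on casein kinase I in the clock, rose by 0.42 (standard error 0.08, adjusted p = 0.0256 from limma) on its brighter probe (A_51_P307243), and it passed in 3 of the 8 fits that left out 1 heart (WT replicate 1, SIRT1 KO replicate 3 or SIRT1 KO replicate 4). It had 1.07, 0.95, 1.00 and 0.97 in the WT hearts and 1.62, 1.40, 1.30 and 1.37 in the SIRT1 KO hearts. All SIRT1 KO hearts were higher, yet its second probe (A_52_P323669) gave -0.10 (adjusted p = 0.534 from limma). Neither *Tef* nor *Ppp5c* passed with median scaling, with no scaling, without the filter on dim probes or with the analysis of variance. The wider-list calls with median scaling (1) and with no scaling (5) were all lower in SIRT1 KO hearts. Most calls over all probes were lower under these settings too. With no scaling 24.8% of all probes passed, and 637 of these 6347 were higher in SIRT1 KO hearts. With median scaling 676 of the 1904 probes that passed were higher.

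*Hlf*, the third PAR bZIP gene, had 0.04, 0.23, 0.43 and 0.24 in the WT hearts and 0.44, 0.50, 0.47 and 0.80 in the SIRT1 KO hearts. Its genotypes did not overlap either, and the difference was 0.32 (standard error 0.11, adjusted p = 0.149 from limma). *Nfil3*, which represses through the same D-box, differed by -0.03 (adjusted p = 0.902 from limma). The activators *Npas2* and *Rora* gave 0.14 (adjusted p = 0.648 from limma) and -0.05 (adjusted p = 0.751 from limma). *Arntl2*, *Rorb* and *Fbxl21* were too dim to be tested. *Csnk2a1*, a kinase of ARNTL and PER2, differed by -0.22 on its brightest probe (adjusted p = 0.125 from limma) and by -0.22 and -0.19 on its others.

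**Figure D4:**
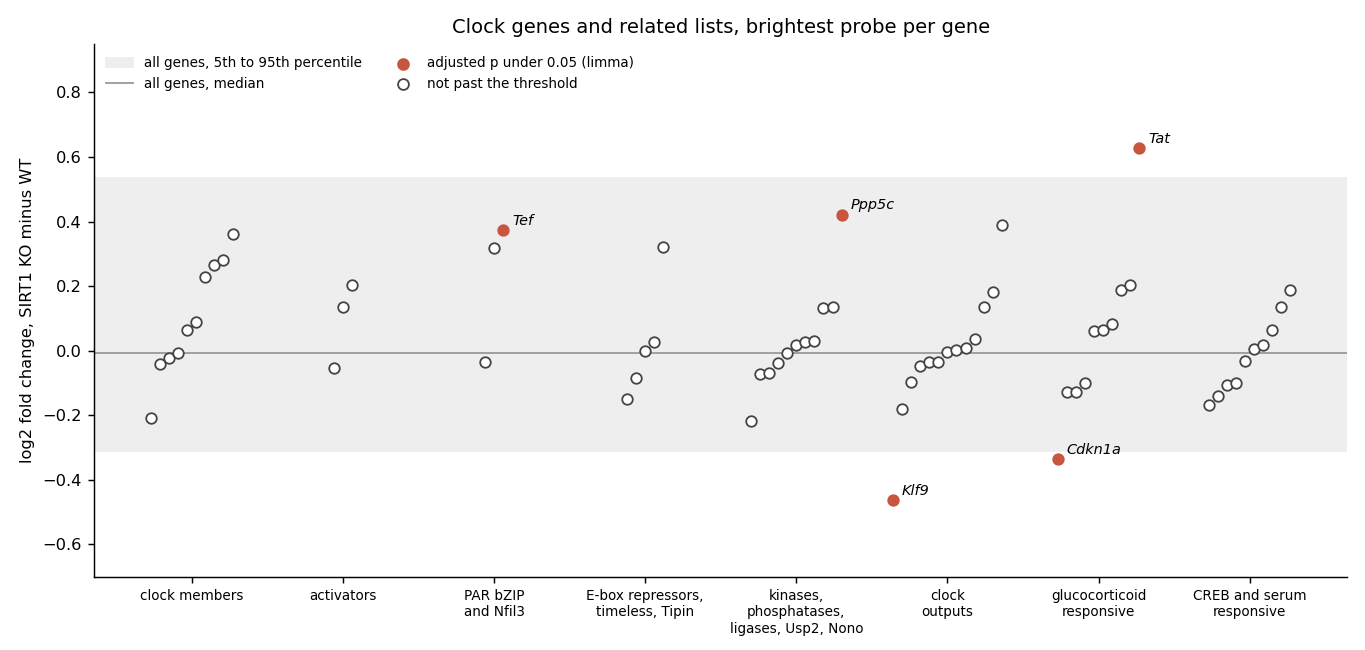
Log2 fold change of SIRT1 KO over WT hearts (n = 4 each) for the brightest probe of each tested gene, by list, ordered within a list; filled points have an adjusted p under 0.05 from limma, and the grey band holds the 5th to the 95th percentile of all 13594 genes. The clock genes run from -0.21 to 0.36, with none filled.

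Genes downstream of the clock gave 1 fall and 0 rises among 13 with limma, where 0.897% of all genes fell and 3.69% rose. *Klf9*, a Krüppel-like factor with circadian and glucocorticoid-responsive expression, had -0.51, -0.33, -0.36 and -0.56 in the WT hearts and -0.85, -0.77, -0.96 and -1.02 in the SIRT1 KO hearts (A_52_P675996). It fell by 0.46 on the log2 scale (standard error 0.09, adjusted p = 0.021 from limma) and by 0.49 on its second probe (A_51_P412200, adjusted p = 0.0321 from limma), so both of its probes passed. On the first probe it passed in 6 of the 8 fits that left out 1 heart, all but those without WT replicate 2 or 3. On the second it passed in 2 of 8, those without WT replicate 1 or SIRT1 KO replicate 4, at adjusted p up to 0.0941. *Tsku* differed by 0.39 (adjusted p = 0.0606 from limma). *Nampt*, which makes NAD+ and so feeds SIRT1, differed by 0.04 (95% confidence interval -0.18 to 0.25, limma adjusted p = 0.858). The median of the 13 was 0.00, with 6 higher and 7 lower.

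Clock genes also answer to hormone signals, so lists of such targets were read beside them. Of 12 glucocorticoid-responsive genes, 10 were tested, *Per1* among them, with 1 rise and 1 fall and a median of 0.06, against 3.69% of all genes called higher and 0.897% called lower. *Tat*, a liver-enriched enzyme of tyrosine breakdown, rose by 0.63 (standard error 0.12, adjusted p = 0.0242 from limma), from a range of -5.18 to -4.77 in the WT hearts to -4.64 to -4.15 in the SIRT1 KO hearts. *Cdkn1a*, a cell cycle inhibitor, fell by 0.34 on the log2 scale (adjusted p = 0.0372 from limma), from 0.71, 0.68, 0.72 and 0.90 to 0.46, 0.43, 0.41 and 0.37. *Tat* passed in 3 and *Cdkn1a* in 0 of the 8 fits that left out 1 heart. *Fkbp5*, *Tsc22d3* and *Sgk1*, classic glucocorticoid targets, gave 0.20, 0.06 and -0.13, none past the threshold. None of the 10 tested genes that answer to cyclic AMP or serum passed with limma, 0 also had an unadjusted p under 0.05, and their median was -0.01. Of all genes 4.58% passed and 20.4% had an unadjusted p under 0.05.

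Other cell types were read on the same scale, as summed linear levels relative to the 75th percentile. The 5 liver markers on the array summed to between 4.05 and 13.4 in the WT hearts and between 4.92 and 59.8 in the SIRT1 KO hearts, highest in SIRT1 KO replicates 1 and 4, with 4 of 4 tested markers higher and 0 past the threshold. *Dbp*, *Tef* and *Hlf* are also abundant in liver. In SIRT1 KO replicates 1 to 4 the liver sums were 59.8, 7.60, 4.92 and 29.5, beside 1.25, 1.08, 1.30 and 1.37 for *Tef* and 0.44, 0.50, 0.47 and 0.80 for *Hlf*. *Tef* was thus highest in replicate 4 and lowest in replicate 2, and in each of these hearts it was above every WT heart. The 7 erythroid markers summed to between 219.7 and 261 in the WT hearts and between 174 and 216 in the SIRT1 KO hearts, without overlap, as 13.7% of all probes were. *Hba-a1*, by far the brightest (mean log2 signal 7.82 in WT hearts, next *Alas2* at 2.62), carried most of each sum. Its own difference was -0.23 (adjusted p = 0.206 from limma). Of the 6 erythroid markers tested, 3 were higher and 3 lower with a median of -0.01, and 1 rose past the threshold, *Hbb-y*, an embryonic globin, by 0.92 (adjusted p = 0.00783 from limma). The atrial sums overlapped, at 471 to 714 and 328 to 701, with 6 of 6 markers lower and 0 past the threshold. The endothelial sums overlapped too, at 37.3 to 43.1 and 32.9 to 39.6, with 6 of 6 markers lower and 0 past the threshold. The 5 ventricular markers summed to 640 to 689 in WT and 661 to 826 in SIRT1 KO, with 3 higher and 2 lower, and 1 fell past the threshold, *Kcne1*, by 0.80 on the log2 scale (adjusted p = 0.00309 from limma). The part of these in the clock gene values was not tested.

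The SIRT1 KO arrays were dimmer, and the differences depended on how arrays were scaled. With the 75th percentile, the median difference over all probes was 0.01. It was -0.02 after quantile normalization, -0.12 with the median of each array and -0.21 with no scaling. *Nr1d2*, *Per2* and *Cry2* stayed above 0 under each of these, at 0.14, 0.06 and 0.05 with no scaling. The 75th percentile, the median and no scaling differ only by a constant for each array. A gene's place against the median of all probes therefore could not change among them. After quantile normalization, where it could change, these genes lay at 0.36, 0.26 and 0.22. *Clock* stayed below 0, at -0.43 with no scaling, where its brightest probe passed the test (adjusted p = 0.0242 from limma) together with 24.8% of all probes. *Per1* and *Dbp* turned negative with median scaling and with no scaling, which shift all genes alike, and the dim *Per3* with quantile normalization.

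**Figure D5:**
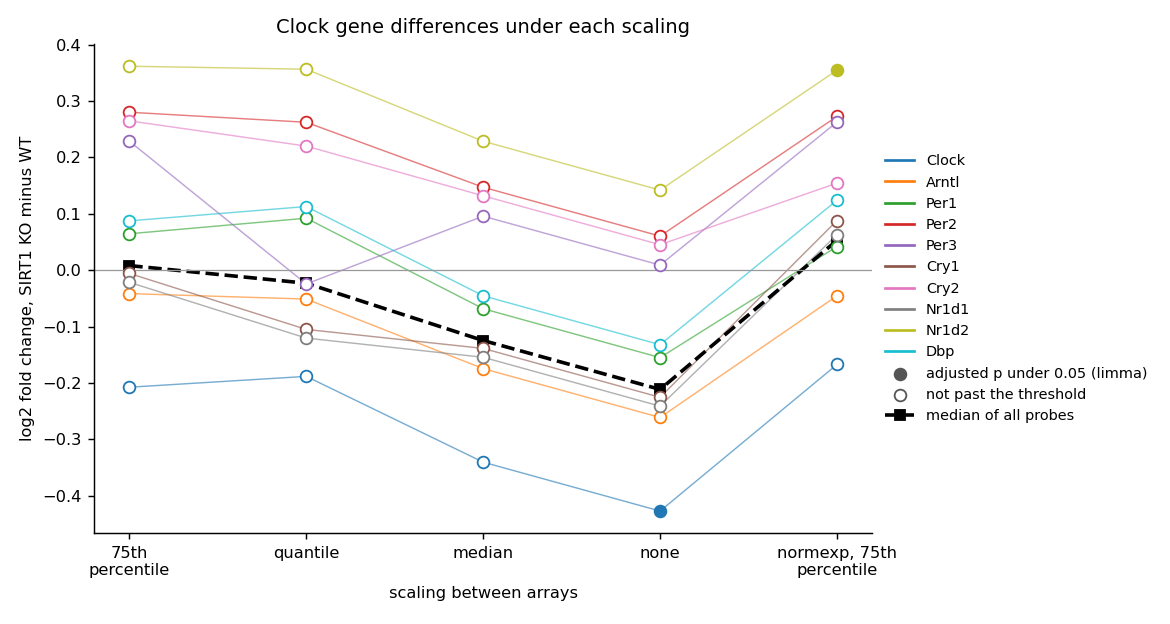
Log2 fold change of SIRT1 KO over WT hearts for the brightest probe of each clock gene under 5 ways of scaling or background correction; the dashed line is the median of all tested probes, and filled points have an adjusted p under 0.05 from limma. With the array median and with no scaling all genes and the median of all probes sit lower than with the 75th percentile by the same shift. *Nr1d2*, *Per2* and *Cry2* lie above that median in every column, an order that these shifts could not change.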

How the data were processed

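RNA from 4 WT and 4 SIRT1 KO hearts at E18.5 (500 ng total RNA per array) was hybridized to one-color Agilent arrays. The authors deposited the intensity of every spot as Feature Extraction wrote it, background-subtracted, error-modelled and not scaled between arrays; the submitters' notes name version 12 and the file headers 12.0.0.7. The deposited series table equals this processed signal in 100% of spots. The authors compared genotypes by analysis of variance, whose factors are not given in the sources used here.

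Control and outlier spots were left out, and log2 values were centred on the 75th percentile of their array and averaged over the spots of a probe. Accessions were matched without versions to RefSeq names (GRCm38.p6), which named 28223 of 41174 probes (68.5%). A probe needed 4 or more of the 8 arrays well above background and was then tested with limma 3.58.1 (R 4.3.3), with Benjamini-Hochberg adjustment over all 25616 at 0.05; the fit was first tested on simulated data. Single probes also had the exact two-sided permutation test over hearts. The brightest probe, by mean log2 signal, stands for a gene with several. Where nothing says otherwise, p-values measure the spread between these hearts, and with 4 arrays per genotype their number limits the precision. The genes named are the 10 clock genes with all probes, *Sirt1*, the genes of each list past the threshold with up to 4 more of the smallest p, and the 3 genes most like *Dbp* and *Arntl*; genes outside this rule were chosen after their values were seen, and 1 gene of the wider clock list is counted but not reported here. The clock genes and the lists were chosen with earlier results of these data known. Alternatives changed the scaling, background correction, dim-probe filter, test, array weights, series table, replicate block, probe of the gene, or left out each heart. Normexp was run on the median signal, chosen after seeing the data, because the files used here hold no mean signal column. Tables and plots used pandas 2.3.3, numpy 2.4.6 and matplotlib 3.10.9 in Python 3.11.15.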

Additional observations from a re-analysis of the deposited data

Results flagged for a closer look

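Among 84 groups of 4 hearts read for the named genes, 3 held a heart far from the others by Dixon's criterion, which chance reaches in about 1 group in 20. *Per1* was 1.18 in SIRT1 KO replicate 3, where the other SIRT1 KO hearts lay between 1.45 and 1.47. *Cry1* (A_51_P302204) was -2.78 in WT replicate 4, where the other WT hearts lay between -3.00 and -2.97. *Hlf* was 0.80 in SIRT1 KO replicate 4, where the other SIRT1 KO hearts lay between 0.44 and 0.50. Without SIRT1 KO replicate 3 the difference of *Per1* was 0.13, and its adjusted p was 0.233 with limma.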

How the results depend on the processing

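Of 19 alternatives, 11 of the 15 clock probes had all and 4 dim ones 18, since they fail the filter that asks for all 8 arrays. Over those that were run, 10 probes never passed the test, 6 kept their sign and 9 changed it at least once. Median scaling and no scaling shift all probes alike, and the sign changes of *Per1* and *Dbp* came from these alone. With no scaling 2 clock probes passed, both of *Clock* (-0.43 and -0.27), and with normexp 2 passed (*Nr1d2* and a dim *Nr1d1* probe); with 1 heart left out there were 0 to 1, the dim *Per2* probe without WT replicate 4. Both dim probes were well above background in only 1 WT heart, so these calls set SIRT1 KO hearts against background. The median difference of the 10 genes, 0.08, became -0.057 with median scaling and -0.14 with no scaling (medians of all probes -0.12 and -0.21), 0.20 without WT replicate 1, where the other fits with 1 heart left out gave 0.03 to 0.11, and 0.16 with the mean over the probes of a gene. Of the wider list 1 gene passed with median scaling (*Csnk2a1*), 5 with no scaling, 0 with no filter on dim probes, 0 with the analysis of variance and 0 to 2 with 1 heart left out. Over all probes 1250 passed, 1904 with median scaling, 6347 with no scaling, 546 with the analysis of variance, 2130 with array weights, 2535 with normexp and 657 to 1825 on leaving out 1 heart, lowest when it was WT replicate 3 and highest when it was SIRT1 KO replicate 3; their share higher in SIRT1 KO hearts was 81.4%, and 63.9% with quantile normalization, 35.5% with median scaling and 10% with no scaling. Beyond the scalings, the cause of these changes was not tested.

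Replicate numbers are shared between the genotypes. Deviations from the genotype mean correlated between same-numbered hearts at r = 0.204, 0.207, 0.0562 and 0.141 over 25535 probes, so the numbers were not taken to pair the hearts, although every heart correlated best with its own number, a hint from the data and not from the design. With the replicate block 1185 probes passed, with 0 clock probes and 2 genes of the wider list among them, and the median of the 10 genes stayed at 0.08. Under that block the brighter *Sirt1* probe (adjusted p = 0.0645), the second *Klf9* probe (0.0605) and *Cdkn1a* (0.0800) no longer passed with limma, and the standard error of the brightest *Nr1d1* probe went from 0.25 to 0.07 at the same difference. At 4 hearts per genotype a dim gene such as *Per3*, near background, has wide limits, and no list was tested as a set.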
